A study of Homo sapiens with 6 samples.

Results

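Panc-1 cells, an established human line of pancreatic ductal adenocarcinoma, were compared with and without RARγi-2 (MM11253), an antagonist of the retinoic acid receptor RARγ. The comparison sets the library of Panc-1 cells treated for 24 h with RARγi-2 against the library of untreated Panc-1 control cells, so 2 of the 6 libraries of the series enter it, with 1 library on each side. Every entry above the floor of the file in at least 1 of these 2 libraries was taken, which gave 13921 of the 53826 entries listed. The other libraries are Panc-1 cells with RARγi-1 (LY2955303), a second RARγ antagonist, and the same 3 conditions in PK-1, another line of this cancer. The title of the treated library names RARγi-2, while its treatment entry reads RARγi-1, and the library was assigned by its title. The dose used for the RNA-seq and the vehicle of the control are not stated in the labels or methods. Values are TPM, the abundance of a transcript scaled to the same total in each library, and the files hold nothing below 1 TPM, which is called the floor here. Each condition was sequenced as 1 library, so the spread between replicates is not known and no test was run. In bulk RNA, fewer cells in a given state and less RNA per cell cannot be told apart. An entry is called higher or lower where log2 of (TPM + 1) with RARγi-2 over (TPM + 1) in the control lies past 2-fold, and "rose" and "fell" are used below only of such entries.

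RARγ is a nuclear receptor that binds retinoic acid together with an RXR partner and switches the transcription of its target genes. Cells that leave the cell cycle lose the transcripts of DNA replication and mitosis, which are driven by E2F factors and by complexes that bind the CHR element and the CCAAT box. A separate set of stress pathways acts on other genes. Misfolded protein in the endoplasmic reticulum (ER) activates ATF6, XBP1 and the kinase PERK, of which the last raises ATF4 and CHOP, while oxidants and electrophiles release NRF2 to act on antioxidant genes.

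Sequences known to be bound in some of these pathways were searched for just before the start of the genes. The stretches below were chosen because they hold matches, and the shares of promoters that hold one are given further below. The ER stress element, CCAAT and CCACG with 9 bases between them, is bound by NF-Y with ATF6 or XBP1. Among genes that rose, it was found in the RefSeq promoters (GRCh38.p14, the assembly of hg38) of the ER genes HSPA5, HSP90B1 and CRELD2 and of XBP1 itself. The stretches are shown here 5′ to 3′ with each match on either strand in capitals. HSPA5 (BiP, the main ER chaperone) lies on the minus strand at chr9:125241371-125241429, HSP90B1 (GRP94) on the plus strand at chr12:103930196-103930359, CRELD2 on the plus strand at chr22:49918534-49918592 and XBP1 on the minus strand at chr22:28800583-28800641. CALR (calreticulin), which also holds a match and did not pass 2-fold, is given for contrast from the plus strand at chr19:12938364-12938422.
HSPA5: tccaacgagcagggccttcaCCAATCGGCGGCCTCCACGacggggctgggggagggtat
HSP90B1: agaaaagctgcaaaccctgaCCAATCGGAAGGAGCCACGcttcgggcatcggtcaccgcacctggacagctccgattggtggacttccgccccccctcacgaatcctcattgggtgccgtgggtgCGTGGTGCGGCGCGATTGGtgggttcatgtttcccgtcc
CRELD2: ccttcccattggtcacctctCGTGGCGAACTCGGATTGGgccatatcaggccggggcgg
XBP1: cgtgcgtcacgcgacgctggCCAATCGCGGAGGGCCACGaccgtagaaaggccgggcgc
CALR: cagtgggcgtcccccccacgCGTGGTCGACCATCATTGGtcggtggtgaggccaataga

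For the genes that fell, 3 promoters of the cell cycle are shown. PLK1, a mitotic kinase (plus strand, chr16:23678801-23678880), and CDC20, the activator of the anaphase-promoting complex (plus strand, chr1:43358788-43358945), have matches to the CHR element TTTGAA and the CCAAT box in capitals. MCM6, a subunit of the replicative helicase (minus strand, chr2:135876507-135876610), has in capitals matches to the E2F forms TTTCGCGC and TTTGGCGC, which overlap on opposite strands.
PLK1: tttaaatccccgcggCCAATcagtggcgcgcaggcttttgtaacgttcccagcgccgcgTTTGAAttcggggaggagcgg
CDC20: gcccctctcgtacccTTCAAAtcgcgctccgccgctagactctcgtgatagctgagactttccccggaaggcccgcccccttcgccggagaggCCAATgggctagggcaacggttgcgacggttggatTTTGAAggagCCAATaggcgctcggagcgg
MCM6: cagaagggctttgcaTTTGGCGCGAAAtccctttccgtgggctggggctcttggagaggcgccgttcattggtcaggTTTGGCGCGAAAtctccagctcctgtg

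Of the 13921 entries compared, 1183 were higher with RARγi-2 (8.50%) and 1562 were lower (11.2%), and the median log2 fold change of all entries was -0.03. Past 4-fold, 212 entries were higher and 361 lower, but past 16-fold the order turned, with 17 higher and 7 lower. By the mean of both libraries, 8.56% of entries rose and 13.1% fell from 5 to 20 TPM, 9.26% rose and 12.6% fell from 20 to 100 TPM, and 12.5% rose and 10.6% fell from 100 to 1000 TPM. The entries that rose made up 5.03% of all TPM in the control and 19.6% with RARγi-2, and those that fell went from 17.4% to 4.74%. Of the entries that rose, 105 were listed at the floor in the control, and of those that fell, 132 were listed at the floor with RARγi-2. Genes for which RefSeq gives a protein made up 85.0% of the entries that rose, 94.3% of those that fell and 87.6% of all, and long noncoding RNA genes 9.02%, 3.79% and 7.40%.

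**Figure D1:**
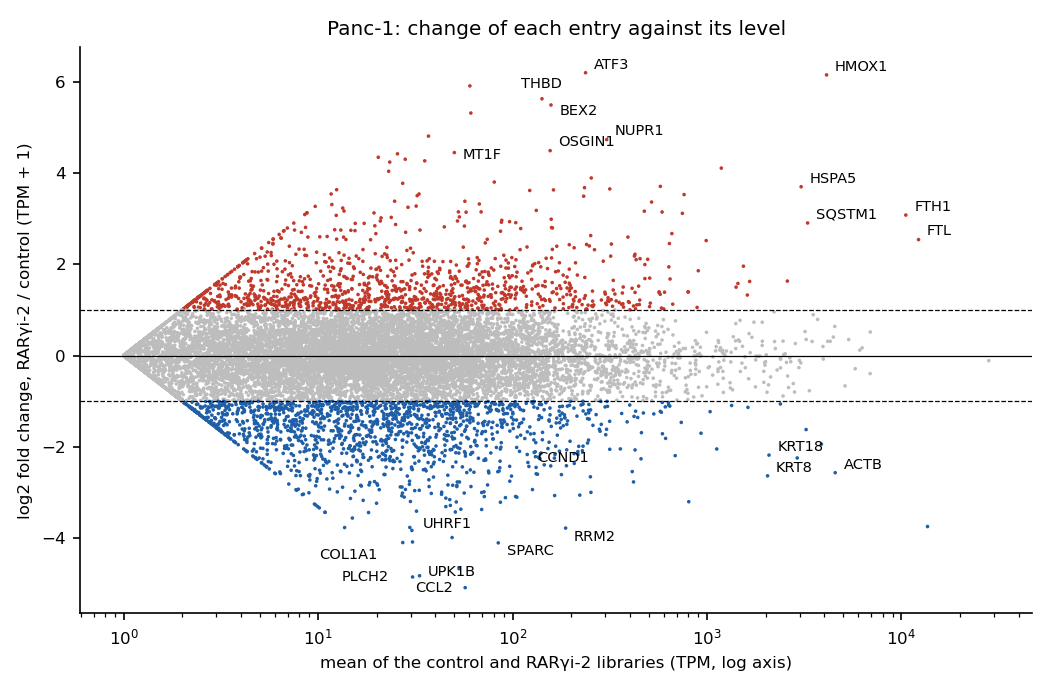
Each point is 1 entry of the comparison, with the mean TPM of the control and RARγi-2 libraries on a log axis against its log2 fold change (TPM + 1). Red points are higher and blue points lower past 2-fold (dashed lines), and HMOX1, FTL and FTH1 stand at the upper right while ACTB, KRT8 and KRT18 stand at the lower right. The 2 entries that bear on the sex of the donor of the line were counted but are neither listed nor drawn.

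The largest rise among entries with at least 10 TPM in 1 of the libraries was that of ATF3, a stress-induced factor of the ATF and CREB family (chr1:212565407-212620777). It went from 5.38 TPM in the control to 469 TPM with RARγi-2, 73.7-fold. HMOX1, the heme oxygenase that breaks down heme and releases iron (chr22:35381096-35394207), went from 113 to 8126 TPM, 71.3-fold. THBD (thrombomodulin, a receptor for thrombin) went from 4.64 to 279 TPM, BEX2 from 5.88 to 309 TPM and BEX4 from 2.03 to 120 TPM. The other genes at the top were C17orf107, the stress-induced chromatin protein NUPR1 at 588 TPM, OSGIN1 at 300 TPM and the metallothionein MT1F at 96.9 TPM with RARγi-2. URGCP-MRPS24, listed at the floor in the control and at 120 TPM with RARγi-2, is a readthrough entry that shares exons with MRPS24, which itself fell from 383 to 155 TPM. Reads of the overlapping entries cannot be told apart here.

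The largest fall was that of CCL2, a chemokine that attracts monocytes (chr17:34255285-34257203), from 112 to 2.31 TPM, 34.1-fold. PLCH2, a phospholipase C, went from 60.1 to 1.11 TPM and the uroplakin UPK1B from 65.1 to 1.32 TPM. Matrix genes followed, namely HAPLN3 at 3.07 TPM, the collagen-binding SPARC at 8.35 TPM and the collagen chain COL1A1 at 2.10 TPM with RARγi-2. The remaining genes of the 10 largest falls were the receptor EPHB6 and 3 genes of dividing cells, KIF20A, UHRF1 and RRM2. In terms of TPM, the gain was largest for the ferritin chains FTL, from 3585 to 20896 TPM, and FTH1, from 2225 to 18831 TPM. The loss was largest for MIR6723 and, after it, for the actin ACTB, from 7809 to 1314 TPM. MIR6723 went from 25351 to 1881 TPM and MIR4461 from 6154 to 1598 TPM. Both entries are short and were not found among the genes of the RefSeq table, so what their reads come from was not tested.

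The control library carried most of the transcripts used to check the line. KRT8, KRT18, KRT19, VIM, SOX9, CDH2 and EPCAM were above the floor in the control, which is 7 of the 8 genes used to check the line, and CDH1, the eighth, was listed at the floor. Of 20 pancreatic cancer driver and duct factor genes, 10 were above the floor in at least 1 of the libraries. The keratin KRT7 was at 4.19 TPM in the control. None of the 13 acinar and islet markers lay above the floor in either library. Of 14 leukocyte and endothelial markers, 4 were above it in at least 1 library, among them CD68, a lysosomal protein, at 244 TPM in the control and 238 TPM with RARγi-2, and the list summed to 252 and 246 TPM. Of 8 fibroblast markers, THY1 alone was listed above the floor, at 11.1 TPM in the control. A value at the floor does not show that a transcript is missing, since all 9 mitochondrial genes looked up and EIF4A1, a translation factor in general use, were listed at the floor.

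The receptor that the compound is directed against fell itself. RARG (chr12:53210569-53232209) stood at 30.1 TPM in the control and 3.27 TPM with RARγi-2, 7.28-fold lower. It stood at 8.83 TPM in the RARγi-1 library, whose values are set beside the others below without a comparison, because both treated libraries share the control and their doses are not stated. Of the 12 genes for retinoid receptors and coregulators, 10 were compared. RARA was at 11.5 and 7.28 TPM and RXRA at 15.8 and 11.2 TPM, neither past 2-fold. Among 13 compared genes of retinoic acid metabolism and response, 4 fell and 0 rose, with a median of -0.49. These were the transglutaminase TGM2, from 66.2 to 8.17 TPM, the retinoic acid carrier CRABP2, from 231 to 37.2 TPM, the synthesizing enzyme ALDH1A3, from 55.6 to 10.4 TPM, and the retinal reductase DHRS3, from 26.4 to 6.27 TPM. FABP5, the other carrier of retinoic acid, was at 234 and 166 TPM, a log2 change of -0.49, and the keratin KRT13 was listed at the floor in both.

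Most of the genes that carry cells through G1 fell. Of 10 interphase cyclins, CDKs and the phosphatase CDC25A, 7 fell and 1 rose, with a median of -1.26. CCNA2 went from 50.4 to 4.97 TPM, CCND1 from 205 to 37.2 TPM and CDK2, the partner of cyclins E and A, from 94.7 to 19.7 TPM. The G1 kinases differed from one another: CDK6 passed the limit narrowly, from 23.1 to 11.04 TPM, while CDK4 was at 293 TPM in the control and 258 TPM with RARγi-2, a log2 change of -0.18. CCND2 was listed at the floor in the control and at 6.72 TPM with RARγi-2.

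The CDK inhibitors did not move as one group. CDKN1A, which encodes p21, rose from 86.1 to 204 TPM and CDKN1C from 4.20 to 10.9 TPM. CDKN1B, which encodes p27, was at 24.3 and 46.7 TPM, a log2 change of 0.91 that lies just under the limit. CDKN2C, the INK4 inhibitor p18, fell from 62.0 to 9.90 TPM, and CDKN3 and CDKN2D fell as well. Among 13 genes of the E2F and retinoblastoma family, the activators E2F1 (93.9 to 16.4 TPM) and E2F2, together with E2F8, TFDP1 and RBL1, fell. E2F7 rose from 7.56 to 18.2 TPM. RB1 itself was at 16.5 and 17.6 TPM.

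Most of the genes for copying DNA fell. Of 12 genes that supply nucleotides, 10 fell, with a median of -1.58. RRM2, the small subunit of ribonucleotide reductase, went from 350 to 24.5 TPM and TYMS (thymidylate synthase) from 397 to 46.6 TPM. The mitochondrial TK2 and RRM2B, the subunit used outside S phase, had log2 changes of -0.18 and 0.14. Of 46 origin and replisome genes, 32 fell and 0 rose, with a median of -1.52, among them MCM4 (101 to 11.6 TPM), MCM10 and PCNA (307 to 49.4 TPM). CDC6, which loads the helicase at origins, was the farthest against the rest at 42.8 and 83.6 TPM, a log2 change of 0.95. Of 20 genes that restore chromatin and DNA methylation behind the fork, 14 fell, led by UHRF1 (57.6 to 3.10 TPM) and the lamin LMNB1 (99.7 to 8.72 TPM), and the histone chaperone ASF1A rose from 32.9 to 79.1 TPM. Of 39 compared genes of recombination, Fanconi and mismatch repair, 15 fell and 0 rose, with a median of -0.80.

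The mitotic genes had the lowest median of the lists with at least 10 members compared. Of 54, 52 fell and all 54 were below the control, with a median of -2.10, against -0.03 for all entries. Their TPM summed to 6001 in the control and 1549 with RARγi-2. KIF20A, a kinesin of cytokinesis, went from 58.6 to 2.50 TPM, MKI67 from 93.5 to 9.19 TPM and ANLN, which builds the contractile ring, from 166 to 18.2 TPM. PLK1, whose promoter is shown above, went from 169 to 24.2 TPM. CDC25C and BUB3, with log2 changes of -0.81 and -0.50, were the members that did not pass 2-fold. Of 17 condensin and cohesin genes, 10 fell, led by the condensin subunit NCAPH (35.9 to 4.26 TPM), whereas the cohesin loader NIPBL and the subunit STAG2 had log2 changes of 0.11 and 0.00.

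Histone genes were divided. Of 18 compared, 7 rose, 2 fell and 9 stayed within 2-fold, with a median of 0.84, beside -0.02 in the RARγi-1 library. Their TPM summed to 2417 in the control and 2015 with RARγi-2. Among clustered histone genes H1-2 rose from 21.8 to 59.4 TPM, H2BC5 from 18.2 to 52.0 TPM and H4C8 from 1.77 to 10.1 TPM. H2AX fell from 338 to 138 TPM and the replacement histone H3-3A from 312 to 149 TPM. The libraries were made from mRNA, so the clustered genes are seen here only as far as their transcripts were captured.

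**Figure D2:**
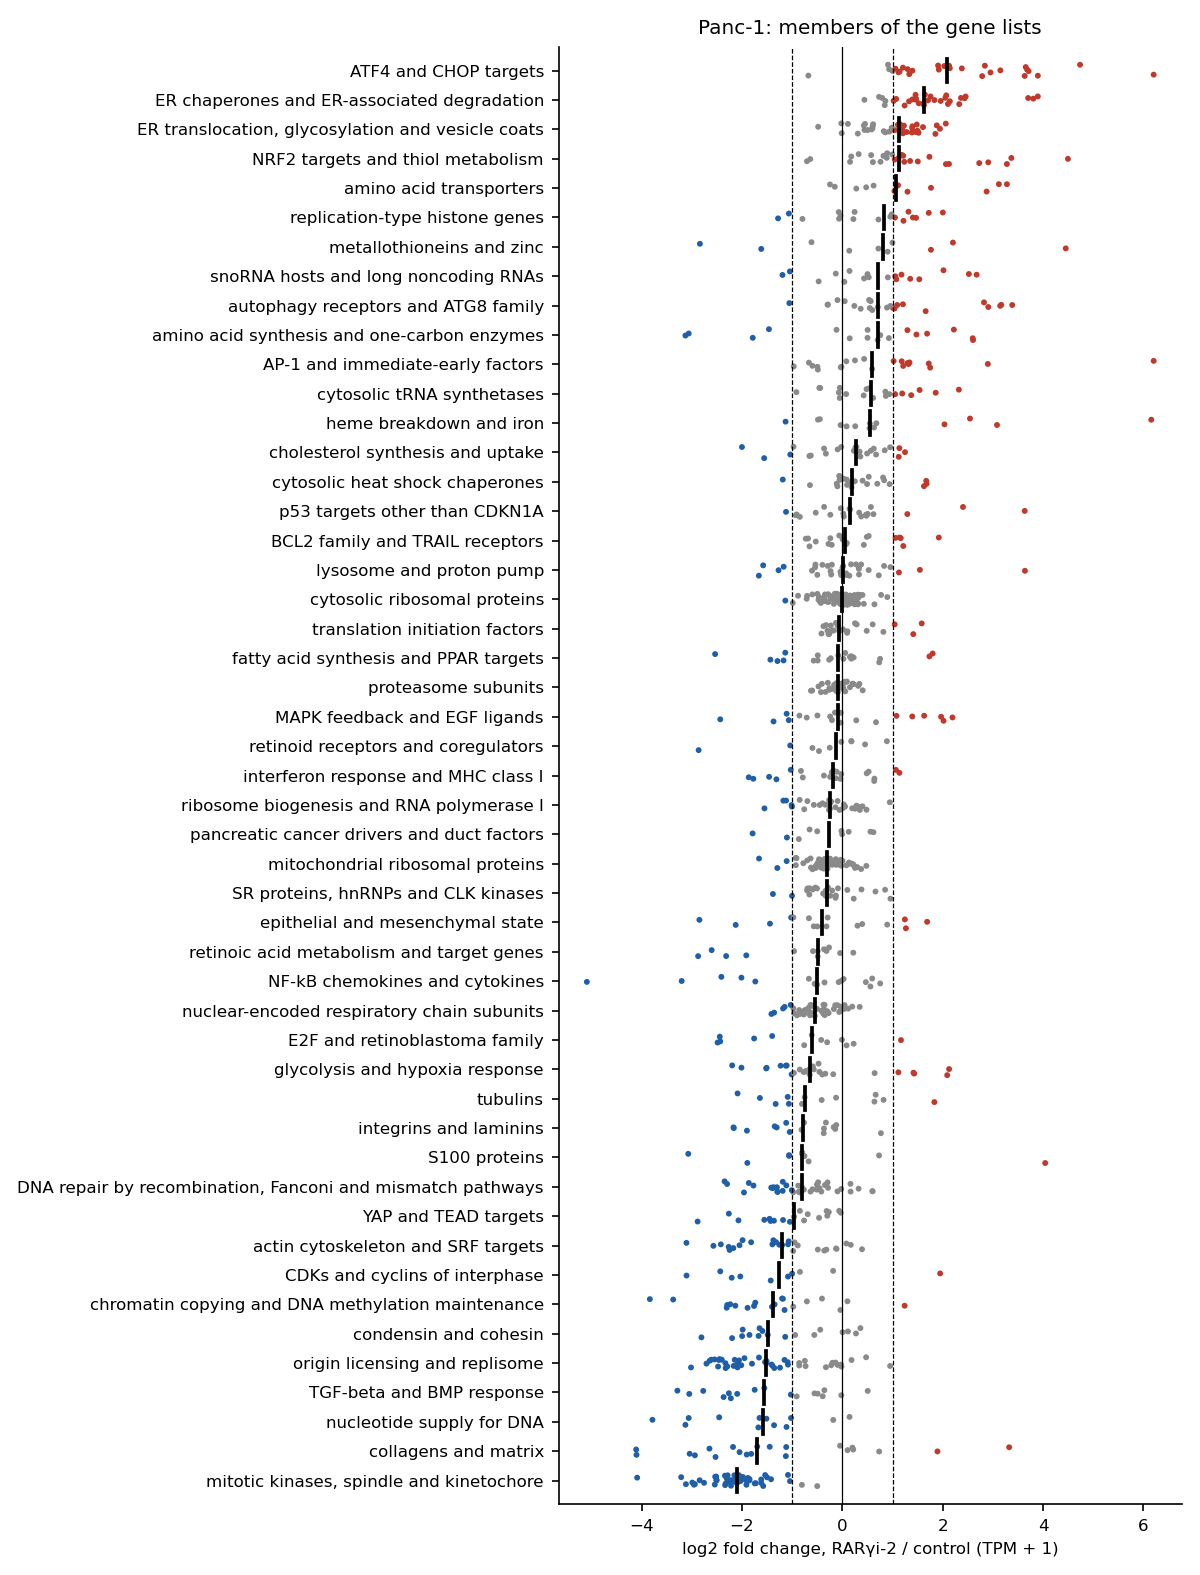
Members of the gene lists with at least 10 members compared, 1 point per gene, by log2 fold change (TPM + 1) of RARγi-2 over control, with the list median as a black bar and lists ordered by median. Red and blue points lie past 2-fold (dashed lines), from the mitotic list at -2.10 to the ATF4 and CHOP list at 2.08.

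Most of the genes that respond to ATF4 and CHOP rose. Of 28 compared, 24 rose and 0 fell, with a median of 2.08. DDIT3, which encodes CHOP, went from 80.8 to 1070 TPM, TRIB3, a pseudokinase that CHOP induces, from 45.7 to 587 TPM and PPP1R15A (GADD34), which restores translation, from 33.0 to 436 TPM. SESN2, an inhibitor of mTORC1, went from 23.4 to 301 TPM and HERPUD1, an ER membrane protein of degradation, from 31.1 to 477 TPM. ATF5 was the member below the control, at 165 and 103 TPM.

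Amino acid supply split within itself. Among transporters, 8 of 13 rose and 0 fell, with a median of 1.07. Both chains of the cystine transporter rose, SLC7A11 from 5.15 to 58.7 TPM and SLC3A2 from 153 to 1340 TPM. The glycine transporter SLC6A9 rose from 5.25 to 44.8 TPM, while SLC7A5, another partner of SLC3A2, was at 214 and 259 TPM. Of 17 enzymes of amino acid synthesis and one-carbon metabolism, 6 rose and 4 fell. ASNS (asparagine synthetase) rose from 150 to 702 TPM and the mitochondrial folate enzyme MTHFD2 from 217 to 606 TPM. The cytosolic folate enzymes SHMT1 and MTHFD1 fell, the latter from 117 to 41.6 TPM, along with TYMS. Of 20 cytosolic tRNA synthetases, 6 rose and 0 fell, with a median of 0.57, from WARS1 (87.3 to 440 TPM) and GARS1 (389 to 1414 TPM) down to EPRS1, and QARS1 was lowest at a log2 change of -0.92.

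In the ER, 27 of 32 chaperone and degradation genes rose and all 32 were above the control, with a median of 1.63, beside 0.93 in the RARγi-1 library. HSPA5 went from 434 to 5661 TPM, 13.02-fold, and the list as a whole went from 6171 to 22074 summed TPM. DNAJB9, the HSPA5 cofactor that restrains IRE1, rose from 9.88 to 151 TPM, HYOU1 from 197 to 1084 TPM and the factor XBP1 from 58.0 to 259 TPM. CRELD2 was at 66.8 TPM in the control and 348 TPM with RARγi-2, beside 86.5 TPM in the RARγi-1 library. CALR, at 1310 and 2175 TPM, and ERO1A, at 38.4 and 52.4 TPM, were among the 5 that did not pass 2-fold. Downstream, 23 of 40 genes of translocation, glycosylation and vesicle coats rose and 0 fell, with a median of 1.12. SEC61A1, the channel, rose from 262 to 1011 TPM and SEC24D, a coat subunit of vesicles leaving the ER, from 16.3 to 71.3 TPM, whereas SRP9 and SRP14 of the signal recognition particle had log2 changes of -0.48 and -0.02.

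Of 27 NRF2 targets compared, 15 rose, 0 fell and 12 stayed within 2-fold, with a median of 1.12. SRXN1 (sulfiredoxin) went from 90.8 to 946 TPM, TXNRD1 (thioredoxin reductase) from 168 to 737 TPM and the chains of glutamate-cysteine ligase, GCLC and GCLM, from 22.02 to 151 TPM and from 17.9 to 78.1 TPM. GPX4 and TKT were at log2 changes of -0.71 and -0.64. In heme and iron handling, 4 of 14 rose and 1 fell. They were HMOX1, FTH1, FTL and BLVRB, a biliverdin reductase that went from 67.7 to 281 TPM. The 14 genes summed to 0.662% of all TPM in the control and 4.89% with RARγi-2. TFRC, which imports iron, was at 78.2 and 115 TPM, and STEAP3, an iron reductase, fell from 74.1 to 33.3 TPM.

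Of 25 autophagy genes, 10 rose and 1 fell, with a median of 0.71. The receptor SQSTM1 (p62) rose from 773 to 5809 TPM, the ATG8 proteins MAP1LC3B from 94.6 to 857 TPM and GABARAPL1 from 10.9 to 104 TPM, and WIPI1, which binds the forming membrane, from 9.11 to 105 TPM. GABARAPL2 was at 99.95 and 81.7 TPM. The regulator TFEB fell from 4.71 to 1.75 TPM while its relative TFE3 rose from 51.4 to 111 TPM. None of the 31 proteasome subunits passed 2-fold in either direction, with a median of -0.09.

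Metal-binding proteins did not share a direction. Of 10 compared metallothionein and zinc genes, 3 rose and 2 fell. MT1F rose from 3.47 to 96.9 TPM, MT1X from 97.4 to 333 TPM and the zinc exporter SLC30A1 from 7.40 to 37.7 TPM, while MT1A fell from 131 to 17.5 TPM and the zinc importer SLC39A10 from 12.4 to 3.37 TPM. MT2A was at 3360 TPM in the control and 2192 TPM with RARγi-2, beside 1068 TPM in the RARγi-1 library. Metallothionein genes are close copies of each other, so reads may be divided among them. Of 23 cytosolic heat shock chaperones, 3 rose and 1 fell, with a median of 0.20, beside 8.50% and 11.2% of all entries. HSPA1A rose from 307 to 984 TPM and its near-identical copy HSPA1B from 71.4 to 222 TPM, beside 328 and 78.4 TPM with RARγi-1, whereas HSP90AB1 was at 2462 and 2500 TPM.

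**Figure D3:**
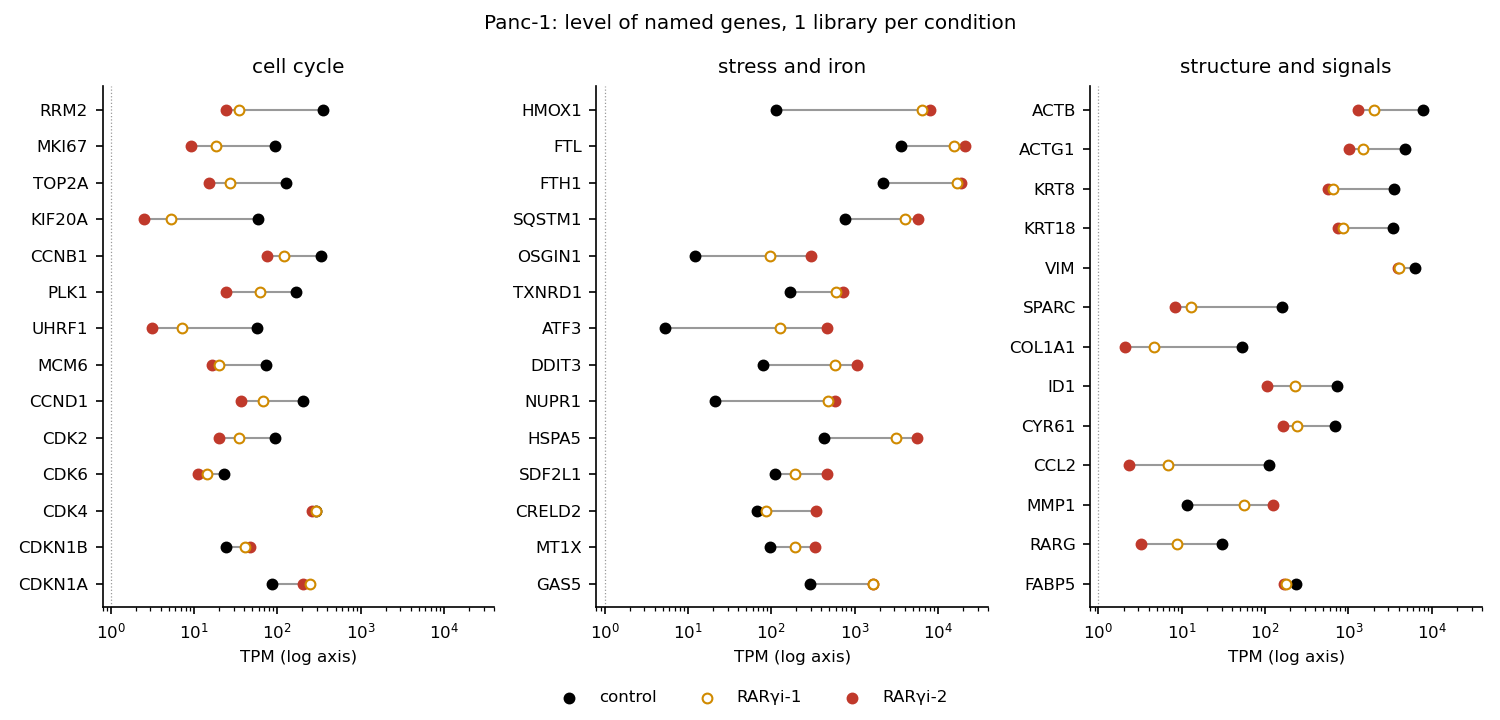
TPM on a log axis of 41 named genes in the 3 Panc-1 libraries, with control as black, RARγi-1 as open and RARγi-2 as red points and a line joining control and RARγi-2. KIF20A runs from 58.6 to 2.50 TPM, HMOX1 from 113 to 8126 TPM and COL1A1 from 52.4 to 2.10 TPM, and CDK4 stays within 258 to 295 TPM.

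Among genes of cell shape, most of the actin and keratin genes fell, and a smaller share of the tubulin genes did. Of 27 actin and SRF-target genes, 16 fell and 0 rose, with a median of -1.20. ACTB went from 7809 to 1314 TPM, ACTG1 from 4808 to 1012 TPM and the myosin light chain MYL9 from 189 to 21.1 TPM, and the list went from 2.52% to 0.845% of all TPM. PFN1, TPM3 and TLN1 had log2 changes of -0.32, -0.13 and 0.39. ACTB and ACTG1 are close copies, so reads may be divided between them. Of 8 keratins, 5 fell, with a median of -2.13: KRT19 from 1454 to 157 TPM, KRT8 from 3530 to 566 TPM, KRT18 from 3415 to 750 TPM, KRT80 and KRT15. KRT16, a keratin of stressed epithelium, was listed at the floor in the control and at 12.4 TPM with RARγi-2. Of 13 tubulin and microtubule genes, 5 fell and 1 rose, and 9 were below the control, with a median of -0.75. TUBB3 fell from 371 to 86.3 TPM, and MAP1B rose from 17.4 to 64.6 TPM.

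Most of the collagen and matrix genes fell. Of 21 compared collagen and matrix genes, 14 fell and 2 rose, with a median of -1.70. SPARC went from 160 to 8.35 TPM, COL1A1 from 52.4 to 2.10 TPM and the gelatinase MMP2 from 77.7 to 8.54 TPM. The interstitial collagenase MMP1 went against them, from 11.4 to 123 TPM, and the crosslinking enzyme LOX from the floor to 6.43 TPM. PLAU, the urokinase, fell from 578 to 139 TPM, beside 678 TPM in the RARγi-1 library. Integrins and laminins had 7 of 16 lower and a median of -0.79, beside 0.05 with RARγi-1. In this list ITGA5, the fibronectin receptor chain, fell from 87.4 to 33.7 TPM, beside 135 TPM in the RARγi-1 library.

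Of 17 compared genes of the TGF-beta and BMP response, 10 fell and 0 rose, with a median of -1.56. The inhibitor of differentiation ID1 went from 732 to 106 TPM, TGFBI from 348 to 66.7 TPM and the TGF-beta binding protein LTBP2 from 87.6 to 8.07 TPM, and SMAD6 from 15.6 TPM to the floor. The receptors TGFBR1 and TGFBR2 did not pass 2-fold, at log2 changes of -0.02 and -0.56. Of 19 YAP and TEAD targets, 9 fell and all 19 were below the control, with a median of -0.96, among them AMOTL2 (48.3 to 5.67 TPM), CCN2 (229 to 47.0 TPM) and CCN1 (689 to 163 TPM). YAP1 and its relative WWTR1 were at log2 changes of -0.27 and -0.31. Of 17 NF-kB chemokines and cytokines compared, 5 fell: CCL2, CSF1 (54.6 to 5.04 TPM), CXCL1, ICAM1 and BIRC3. NFKB1 and RELB were at log2 changes of -0.51 and -0.07. Of 21 interferon-response and antigen-presentation genes, 5 fell and 2 rose, the latter being HLA-B and HLA-C, which share reads with other class I genes.

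Immediate-early factors rose or stayed within 2-fold, and MAPK feedback genes were mixed. Of 21 AP-1 and immediate-early factors, 10 rose and 0 fell, with a median of 0.59. Beside ATF3, KLF2 went from 2.90 to 28.1 TPM, KLF6 from 43.2 to 148 TPM and JUN from 107 to 273 TPM, while FOSL1 was at 619 and 438 TPM. Of 20 MAPK feedback genes and EGF ligands, 6 rose and 4 fell, with a median of -0.09 beside 0.59 with RARγi-1. The phosphatase DUSP5 rose from 51.0 to 202 TPM and the ligand AREG from 2.49 to 14.9 TPM, and SPRY1 fell from 8.69 to 2.74 TPM.

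The lists of p53 targets and of cell death genes had medians near that of all entries. Of 22 p53 targets other than CDKN1A, 3 rose and 1 fell, with a median of 0.15, beside 8.50% and 11.2% of all entries. The genes that rose were SESN2, GADD45A (78.2 to 418 TPM) and TP53INP1, of which the first is also an ATF4 target. Of 20 BCL2-family and TRAIL receptor genes, 5 rose and 0 fell, with a median of 0.05. TNFRSF10B, the death receptor DR5, rose from 31.9 to 124 TPM, and BCL2L11 (BIM) from 5.08 to 12.6 TPM, while BAX was at 112 and 94.3 TPM and the anti-apoptotic BCL2L1 at 219 and 189 TPM.

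The cytosolic ribosomal proteins stayed close to the control. Of 76 cytosolic ribosomal protein genes, 1 fell and 0 rose, with a median of -0.01 and 16.9% and 17.0% of all TPM. RPL7A, the one that fell, went from 2232 to 1014 TPM. Of 55 nuclear-encoded respiratory chain subunits, 5 fell and 0 rose, but 50 were below the control, with a median of -0.55. Of 55 mitochondrial ribosomal proteins, 3 fell, with a median of -0.30. In glycolysis and the hypoxia response, 8 of 28 fell and 5 rose, with a median of -0.65. LDHA (lactate dehydrogenase) fell from 1127 to 245 TPM, PFKM from 44.1 to 10.2 TPM and PKM from 1455 to 619 TPM. The first steps went the other way, with the glucose transporter SLC2A1 at 24.3 and 67.2 TPM and the hexokinase HK2 at 8.91 and 41.2 TPM, and VEGFA rose from 29.7 to 133 TPM.

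Several hosts of small nucleolar RNAs rose. Of 18 snoRNA hosts and long noncoding RNAs, 8 rose and 2 fell, with a median of 0.72. GAS5 rose from 293 to 1687 TPM and ZFAS1 from 178 to 1141 TPM. The spliced RNA of GAS5 is known to be degraded when it is translated. NEAT1, the scaffold of paraspeckles, rose from 25.5 to 106 TPM, and H19 fell from 72.8 to 31.2 TPM. Of 24 SR proteins, hnRNPs and CLK kinases, 2 fell, with a median of -0.31.

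The promoters were searched over the 250 bases before the start, on both strands, for the letters of 9 motifs, a search that the fold changes did not use. RefSeq gave a promoter for 911 of the 1183 entries that rose, 1236 of the 1562 that fell and 10804 of all 13921. The ER stress element stood in 8 promoters of entries that rose (0.878%), in 0 of those that fell and in 14 of all entries (0.130%), beside 0.074% of the 35116 promoters of the table. In the ER chaperone list it stood in 7 of 29 promoters, those of HSPA5, HSP90B1, CRELD2, XBP1, CANX, ERO1B and CALR. The first 6 of these rose, as did 27 of all 32 genes of the list, so the match does not set them apart within it. The CCAAT box, which is contained in the ER stress element, stood in 82.8% of this list's promoters, in 76.1% of mitotic and 88.2% of histone promoters, in 35.3% of all entries compared and in 32.0% of the table.

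The CHR element stood in 24 of 46 mitotic promoters (52.2%), in 10.9% of promoters of entries that fell, in 7.24% of those that rose and in 8.13% of all, beside 13.3% of the table. Of the E2F forms, TTTGGCGC stood in 1.86% of promoters of entries that fell, 0.659% of those that rose, 0.953% of all and 0.550% of the table, and TTTCGCGC in 0.890%, 0.549%, 0.889% and 0.439%. The antioxidant response element (TGAC and GCA with 3 bases between), bound by NRF2, stood in 3.84% of promoters of entries that rose, 2.10% of those that fell, 2.28% of all and 2.59% of the table. The C/EBP-ATF response element TGATGNAAT stood in 1.10%, 0.324%, 0.389% and 0.888%. In the ATF4 and CHOP list it stood in 0 of 22 promoters, and among 21 NRF2-list promoters 2 held the antioxidant element, so these windows hold few of either. The metal response element TGCNCNC, a short motif, stood in 56.1%, 58.0%, 56.4% and 49.1%, and the heat shock element (GAA, TTC and GAA with 2 bases between each) in 0.549%, 0.162%, 0.315% and 0.441%. These shares describe letters only, and binding was not measured. The median GC content of the windows was 64.8% for entries that rose, 66.8% for those that fell and 65.2% for all.

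PK-1 cells treated with RARγi-2 have a control library of their own. There 1701 of 14028 entries were higher (12.1%) and 1762 lower (12.6%). Among the 12546 entries compared in both lines, 674 were higher in both, which is 61.2% of the 1101 entries higher in Panc-1 and 45.3% of the 1489 higher in PK-1. Lower in both were 716, which is 52.9% of the 1354 lower in Panc-1 and 44.4% of the 1611 lower in PK-1. The list medians were -2.10 in Panc-1 and -2.94 in PK-1 for the mitotic genes, 1.63 and 1.43 for the ER chaperones and 2.08 and 2.11 for the ATF4 and CHOP targets. They were -1.52 and -2.52 for the origin and replisome genes, -1.20 and -0.44 for the actin genes, -2.13 and -0.52 for the keratins and -1.70 and 0.00 for the collagens and matrix. KRT8, for example, fell by 2.64 on the log2 scale in Panc-1 and was at -0.66 in PK-1, and VIM was at -0.67 in Panc-1 and rose by 1.72 in PK-1. These differences between lines rest on 1 library per condition and were not tested.

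**Figure D4:**
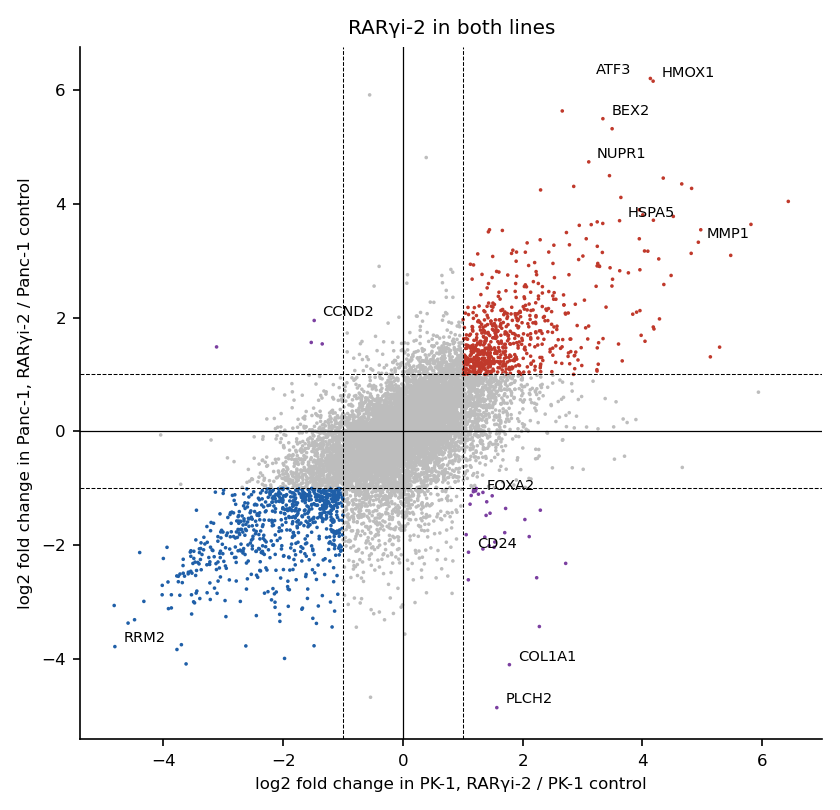
Log2 fold change (TPM + 1) of each entry compared in both lines, RARγi-2 over the control of the same line, with PK-1 on the horizontal and Panc-1 on the vertical axis. Red and blue points passed 2-fold the same way in both lines (674 higher, 716 lower), and purple points passed it in opposite directions, 4 higher and 30 lower in Panc-1, among them COL1A1 and PLCH2.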

How the data were processed

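RNA was sequenced from libraries of mRNA made with a strand-specific kit, 1 per condition. Per library, the authors deposited the log2 of TPM, with lower values set to 1 TPM. That floor was read from the values, which reach down to 0 on the log2 scale and sum to just under the total that TPM should give. Depth cannot be recovered from TPM, so the counting error is unknown. hg38 is named in the submitters' processing notes. The aligner, counting, strand use and annotation are not given in the sources used here.

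The log2 values were turned into TPM with Python 3.11.15, pandas 2.3.3 and NumPy 2.4.6, and figures were drawn with matplotlib 3.10.9. Fold changes are log2 of (TPM + 1) in the treated over (TPM + 1) in the control library. The pseudocount of 1 understates the change of low entries. The calculation was tested on simulated data. Of the Entrez IDs, 95.1% matched the RefSeq table of GRCh38.p14, which gave names, positions and promoters. In all, 113 symbols occur more than once, but none of the genes named here does.

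Libraries were grouped by title. The comparison, the gene lists and the motifs were chosen with earlier results of these data known, so a list's direction is not independent evidence. Named genes are the anchors of each list, up to 3 members of a list past 2-fold with and against its median, the 10 largest rises and falls with at least 10 TPM in 1 of the libraries, the 10 largest gains and losses in TPM, up to 10 entries at the floor in 1 library, and genes that the study measured by other means. Other members are named for contrast and were picked after their values were seen. Some genes that this rule names are not reported here. Other pseudocounts, a minimum of 5 TPM, rescaling by the median ratio and a 3-fold limit were tried as alternatives.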

Additional observations from a re-analysis of the deposited data

Results flagged for a closer look

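Among the genes named by the rule, 5 passed 2-fold in opposite directions in Panc-1 and PK-1 cells treated with RARγi-2, each line against its own control. The difference between the lines was not tested, since each condition has 1 library. PLCH2 had a log2 fold change of -4.86 in Panc-1 (60.1 to 1.11 TPM) and of 1.57 in PK-1 (9.83 to 31.1 TPM). COL1A1 was at -4.10 in Panc-1 and at 1.78 in PK-1, where it stood at 3.21 TPM in the control and 13.4 TPM with RARγi-2. CD24, a surface glycoprotein, was at -2.13 in Panc-1 (211 to 47.5 TPM) and 1.09 in PK-1 (14.9 to 33.0 TPM). FOXA2, a factor of endodermal lineages, was at -1.11 in Panc-1 (54.6 to 24.8 TPM) and 1.26 in PK-1 (34.1 to 83.2 TPM). CCND2 was at 1.95 in Panc-1, from the floor to 6.72 TPM, and at -1.48 in PK-1 (61.9 to 21.5 TPM).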

How the results depend on the processing

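No paired analysis was possible because the comparison within Panc-1 has 1 library on each side and comes from no test. A model over both lines would estimate the mean change of the lines, which is another quantity, and was not run. The entries higher and lower past 2-fold, 1183 and 1562 in number, came to 1510 and 1939 with no pseudocount, 1472 and 1887 with a pseudocount of 0.1, 1078 and 1433 with at least 5 TPM in at least 1 of the libraries, and 1237 and 1509 after rescaling. Under a 3-fold limit they were 397 and 666, a limit that by construction leaves fewer. The list medians past 2-fold, 17 in number, came to between 17 and 19 under the 4 alternatives other than the fold limit. No named gene past 2-fold and no list median past 2-fold changed sign under these 4. For named genes this says little. A pseudocount cannot change a gene's sign, the minimum of 5 TPM leaves its value as it is, and rescaling applies a common factor to all genes. Without a pseudocount, 71 of the 359 named genes above the floor moved by more than the spread of 0.23 (log2) per library, taken from the difference between both treated Panc-1 libraries, and with a pseudocount of 0.1 it was 62. With the minimum of 5 TPM, 4 list medians moved by more than this spread. The summing of repeated entries gave no value, since no named gene has more than 1 entry.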

Other observations

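Some further gene groups of Panc-1 cells with RARγi-2 were measured. Of 16 compared genes of epithelial and mesenchymal state, 4 fell and 3 rose. The junction protein JUP (plakoglobin) fell from 91.5 to 11.8 TPM and CD44 from 462 to 169 TPM, while the tight junction genes CLDN7 (29.3 to 96.7 TPM), OCLN (14.1 to 34.7 TPM) and TJP1 (14.96 to 37.4 TPM) rose. Of 10 S100 genes, 4 fell and 1 rose, with a median of -0.80. S100A4 fell from 295 to 34.2 TPM, and S100P was the one that rose, from 1.75 to 44.3 TPM. The duct factor SOX9 fell from 63.1 to 17.6 TPM.

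Of 34 lysosome and proton pump genes, 3 rose and 4 fell, with a median of 0.01. These counts are near the shares of all entries, 8.50% higher and 11.2% lower. The protease CTSL rose from 100.4 to 295 TPM while CTSB fell from 134 to 54.7 TPM, and the pump subunit ATP6V0D2 went from the floor to 23.9 TPM. In lipid synthesis SCD fell from 91.9 to 33.4 TPM and FASN from 70.5 to 28.1 TPM, and the lipid droplet protein PLIN2 rose from 18.0 to 65.0 TPM. Of 24 cholesterol genes, 3 rose and 3 fell, also near the shares of all entries. Of 32 genes of ribosome biogenesis, 5 fell and 0 rose, with a median of -0.25 in Panc-1 beside -1.43 in PK-1 cells with RARγi-2. MYC was at 78.4 and 93.4 TPM. Among 23 compared translation initiation factors, 3 rose and 0 fell, with a median of -0.06, where 8.50% of all entries rose. Those that rose were EIF1 (722 to 2161 TPM), EIF4EBP1 (140 to 375 TPM), which restrains cap-dependent initiation, and EIF5 (108 to 223 TPM).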
